A study of Mus musculus with 4 samples.

Results

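Sst and Npy, 2 of the 383 genes of a MERFISH panel, were followed across 4 coronal sections of the mouse striatum. MERFISH images single mRNA molecules in place, decodes them by their barcodes and assigns them to segmented cells, so each value below starts as a whole number of decoded transcripts in a cell. Both genes were chosen by name, and every segmented cell that passed the filters entered. Sections Young 1 and Young 2 came from 2-month-old mice and sections Aged 1 and Aged 2 from 18-month-old mice of the C57BL/6NTac strain, for which no transgene or treatment was named, and each section was 10 µm thick. The labels gave neither the sex of the mice nor which mouse a section came from, and the methods of the study call all replicates biological. All p-values measure the spread between sections. Of 320663 segmented cells, 281824 were kept.

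Somatostatin, the peptide encoded by Sst, is released by GABAergic interneurons that contact the dendrites of cortical projection neurons. In the striatum Sst marks a sparse class of aspiny interneurons, most of which also make neuropeptide Y, encoded by Npy, and nitric oxide synthase. Neuropeptide Y is also made by neurogliaform interneurons that lack Sst. Both peptides are cut from precursors, stored in dense-core granules and act on G protein-coupled receptors.

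In the GRCm38 build, with GENCODE gene models, Sst lies on the minus strand of chromosome 16 from 23889573 to 23890958 and has 2 exons. Npy lies on the plus strand of chromosome 6 from 49822710 to 49829507 and has 4 exons. Their longest transcripts, of 721 bases for Sst and 566 for Npy, are short targets for probes beside a panel median of 3006 bases, since only 10 panel genes are shorter than Sst and 2 shorter than Npy. The Sst promoter is known for its cyclic AMP response element, whose palindrome TGACGTCA is set in capitals below. The 30 bases shown lie 59 to 30 bases before the RefSeq start of each gene (GRCm38.p6, 5′ to 3′ on the strand of the gene), at chr16:23890874-23890903 for Sst and at chr6:49822651-49822680 for Npy. The GENCODE model of Sst starts further upstream, so the Sst bases lie before the RefSeq start but inside the GENCODE gene.
Sst: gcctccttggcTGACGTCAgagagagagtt
Npy: ctgcccccgaggcccctcctgccgcgacaa
The palindrome starts 48 bases before the Sst start. Both strands of the 250 bases before the Npy start held neither the palindrome nor its 5-letter core TGACG, which is contained in the palindrome. Of 32851 RefSeq promoters of the same length, 1.55% held the palindrome and 17.8% the core. GC made up 47.2% of these 250 bases in Sst and 69.2% in Npy.

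Kept cells held a median of 400 and 325 transcripts in Young 1 and Young 2 and of 215 and 293 in Aged 1 and Aged 2, so depth differed between the ages. No cell identifier was shared between sections. Cells were grouped into 7 rebuilt classes from marker genes, with Sst and Npy left out of the clustering. The classes are named neuron-like, medium spiny neuron-like (the projection neurons of the striatum), oligodendrocyte precursor (OPC)-like, oligodendrocyte-like, microglia-like, vascular-like and astrocyte-like. Cells in which 3 or more markers of another class came with 3 or more of their own were called mixed and were left out of class levels.

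Sst was concentrated in few cells. A cell was called Sst-strong at 20 or more Sst transcripts, and 484, 377, 246 and 381 cells were Sst-strong in Young 1, Young 2, Aged 1 and Aged 2, or 1488 in all. They made up 0.712% of the kept cells in Young 1 (95% exact binomial interval 0.650 to 0.778%), 0.533% in Young 2 (0.480 to 0.589%), 0.360% in Aged 1 (0.316 to 0.407%) and 0.511% in Aged 2 (0.461 to 0.564%). The intervals cover counting error alone, and the shares differed between sections of the same age by more than that error.

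These few cells carried 40.8%, 46.9%, 48.0% and 48.2% of all Sst transcripts in Young 1, Young 2, Aged 1 and Aged 2. Most cells had no Sst at all, namely 64.6% in Young 1, 81.1% in Young 2, 89.8% in Aged 1 and 82.8% in Aged 2. Cells with 1 to 4 transcripts made up 33.3% in Young 1 and between 9.20% and 17.5% in the other sections, and Young 1 was also the deepest section. Counts were not split into separate groups at the threshold, since 61, 51, 41 and 51 cells lay just below it with 17 to 19 transcripts and 44, 36, 34 and 38 just above it with 20 to 22. The highest count in a cell was 258, 170, 148 and 176.

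By class, 1078 of the 1488 Sst-strong cells were neuron-like, 163 oligodendrocyte-like, 111 medium spiny neuron-like, 76 OPC-like, 36 microglia-like, 16 vascular-like and 8 astrocyte-like. Neuron-like cells were 74.8% of them in Young 1, 75.1% in Young 2, 69.9% in Aged 1 and 68.5% in Aged 2. Cells with markers of several classes were frequent among Sst-strong cells, at 78.3%, 71.4%, 63.0% and 72.4% by section, against 62.3%, 57.2%, 48.7% and 56.9% of other neuron-like cells. Sst-strong cells were also larger, with median volumes of 1122, 1106, 1025 and 1143 µm³ against 925, 880, 847 and 876 µm³ in other neuron-like cells. Results on the genes of Sst-strong cells are therefore given for the neuron-like ones alone wherever the glial classes alter them.

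**Figure D1:**
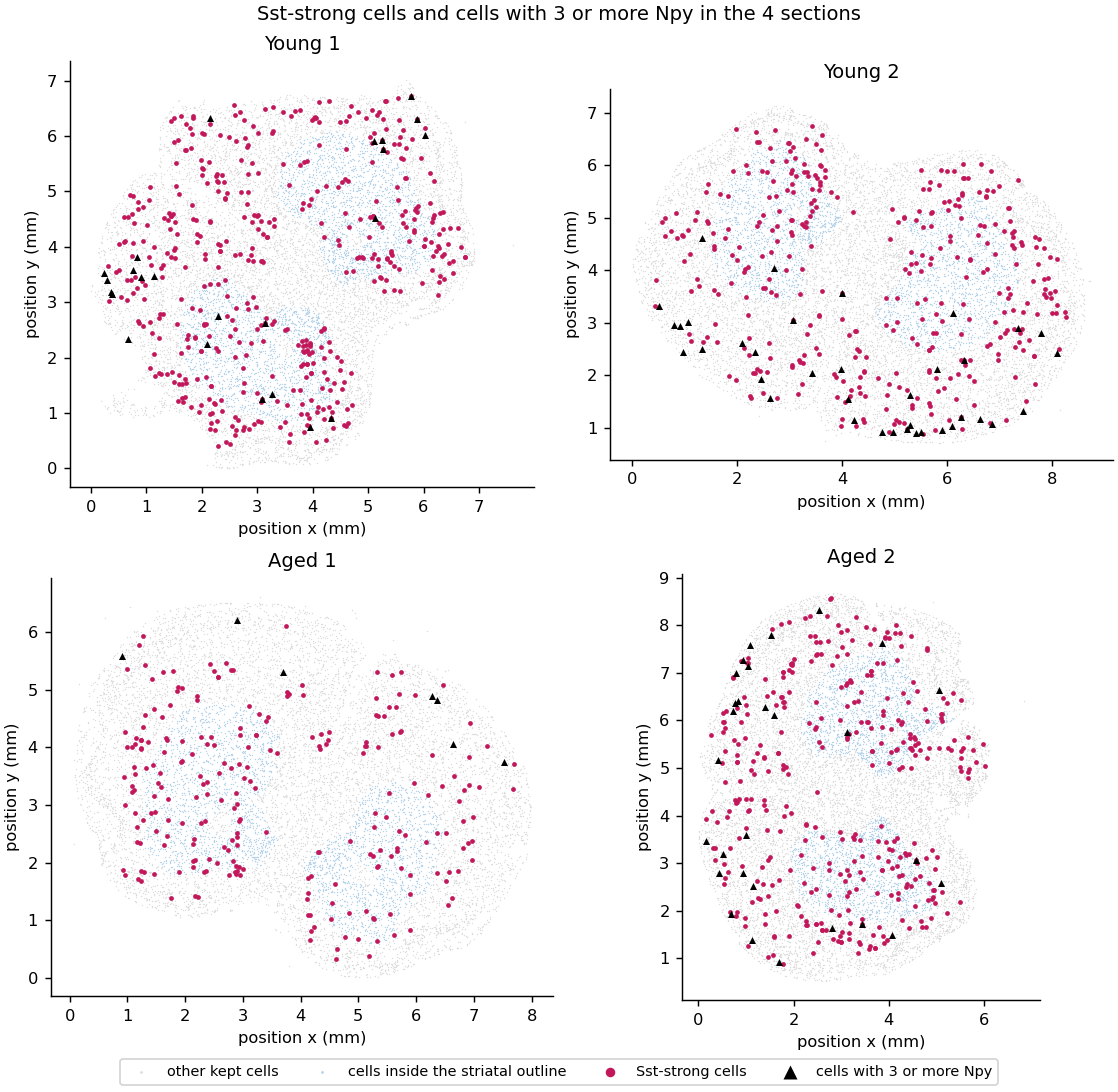
Positions (x and y in mm) of Sst-strong cells (magenta dots) and of cells with 3 or more Npy transcripts (black triangles) in the 4 sections, over a thinned sample of other kept cells (grey) and of cells inside the outlined striatum (pale blue). Sst-strong cells lie in the striatum and outside it in all 4 sections. Of the 97 cells with 3 or more Npy, 87 lie outside it, where most kept cells also lie.

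The striatum was outlined as the area in which medium spiny neuron-like cells reached 40% of all cells within 150 µm, and the rest of the section is called outside. Sst-strong cells were denser inside the outline, at 16, 12, 10.8 and 13.7 cells per mm² in Young 1, Young 2, Aged 1 and Aged 2, than outside it, at 13.5, 8.53, 5.09 and 8.50 per mm². The striatum was higher in 4 of 4 sections, by a mean of 4.22 per mm² (1.47-fold), and p = 0.125 in a two-sided exact sign-flip test over sections is the smallest that 4 sections allow. As a share of kept cells, Sst-strong cells made up 0.711, 0.638, 0.519 and 0.648% inside the outline. Outside it they made up 0.712, 0.493, 0.293 and 0.459%, so Young 1 showed no excess per cell. With a lower threshold of 10 transcripts the difference was 0.666 per mm² (exact p = 0.625). Oligodendrocyte-dense white matter outside the outline held 6.85, 0.806, 2.88 and 2.47 Sst-strong cells per mm², below the 13.8, 8.87, 5.27 and 8.94 per mm² of the remaining tissue in each section.

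By their median, Sst-strong cells also held more Sst in the striatum. The median count there was 58, 48, 43 and 47 transcripts, against 44, 37, 34 and 37 outside, a mean difference of 11 (exact p = 0.125, higher in 4 of 4 sections). Per 10000 transcripts of the other genes in the cell, the medians were 1039, 1157, 1304 and 1074 in the striatum and 633, 597, 1122 and 815 outside. The difference in counts was absent at a threshold of 50 transcripts (-0.25), while that per 10000 stayed above 0 (228).

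Within the striatum Sst-strong cells were denser in the ventral than in the dorsal part. Dorsal densities were 12.4, 10.4, 10.2 and 11.9 per mm² and ventral densities 19.6, 13.8, 11.4 and 15.6 per mm² in Young 1, Young 2, Aged 1 and Aged 2, a mean difference of 3.89 (exact sign-flip p = 0.125, ventral higher in 4 of 4 sections). Across 4 bands from dorsal to ventral, the most ventral band was the densest in every section, at 26.6, 17.5, 14.1 and 24.6 per mm². The ventral excess was 2.19 per mm² (exact p = 0.25) where the outline required 50% medium spiny neuron-like cells. Outside the striatum the outermost 250 µm of tissue held 6.05, 2.91, 0.762 and 3.38 Sst-strong cells per mm². The next 250 µm held 16.8, 7.97, 4.06 and 8.58 per mm², higher in each section.

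Sst-strong cells in the striatum lay a median of 93.3, 135, 136 and 115 µm from the nearest other one, against 117, 136, 143 and 127 µm for a random scatter of the same density. Outside it the distances were 97.3, 128, 133 and 126 µm against 128, 161, 208 and 161 µm, below the random value in each section and by more than in the striatum.

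Npy was near the bottom of the panel. Kept cells held 2672, 1926, 992 and 2110 Npy transcripts in Young 1, Young 2, Aged 1 and Aged 2, which ranked Npy 17th, 19th, 13th and 22nd from the lowest of 383 genes. Its mean count per cell was 1.27, 1.51, 1.10 and 1.49 times the median of the 20 lowest other genes. The highest Npy count in a cell was 4, 9, 3 and 11, so no cell reached the threshold of 20 and co-expression of strong Sst with strong Npy could not be measured. The observed 0 of 1488 Sst-strong cells at this threshold therefore sets no limit on the share of cells with both peptides.

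Npy was nevertheless enriched in Sst-strong cells. Its mean count was 0.205, 0.263, 0.0813 and 0.244 per Sst-strong cell in Young 1, Young 2, Aged 1 and Aged 2, and 0.0597, 0.0449, 0.0258 and 0.0468 per other neuron-like cell. Relative to all transcripts in the cells, Npy was 3.10, 5.45, 2.94 and 4.75 times as abundant in Sst-strong cells, and no section of either kind overlapped the other. Among the 20 lowest other genes the same ratio averaged between 0.582 and 1.67 over sections, and none reached that of Npy.

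In edgeR's quasi-likelihood test on counts summed by section, Npy was higher in neuron-like Sst-strong cells than in other neuron-like cells by a log2 of 2.19 (4.57-fold, SE 0.18, adjusted p = 2.4e-07). Of the 382 genes tested, 4 had a larger fold past the threshold, and 24.3% of all genes were called higher. Those 4 were Fgfbp1 (2.93), Tnf (2.69), Myl12a (2.40) and Gkn3 (2.28), genes not known for neurons. Without each section in turn the log2 fold of Npy lay between 1.99 and 2.35. With Sst-strong cells of all classes it was 1.95 (SE 0.16, adjusted p = 7.9e-06), with 13 genes above it and 28.8% of 382 genes called higher.

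The enrichment was seen in both regions. In the striatum neuron-like Sst-strong cells held Npy at 219, 543, 96.3 and 715 CPM (counts scaled so that every library has the same total) in Young 1, Young 2, Aged 1 and Aged 2, and other neuron-like cells 68.9, 49.7, 52.1 and 63.3, a log2 fold of 2.68 (SE 0.37, adjusted p = 6.2e-07). Outside it the values were 278, 442, 288 and 346 CPM against 74.6, 74.3, 71.0 and 86.1, a log2 fold of 2.15 (SE 0.17, adjusted p = 1.4e-06). The 2 folds differed by 0.55 on the log2 scale (SE 0.39), which did not pass the test (adjusted p = 0.364). Aged 1, the shallowest section, had the fewest Npy transcripts and the lowest striatal value. Striatal Sst-strong cells of all classes held only 26, 29, 5 and 36 Npy transcripts by section, so the striatal CPM values rest on few molecules.

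Sst and Npy correlated only weakly cell by cell among neuron-like cells (Pearson r = 0.0547, 0.0571, 0.0328 and 0.0507 in the 4 sections). Neither the correlation nor the part of sparse counts in it was tested. The genes whose pattern across neuron-like cells was most like Sst, by the lowest r of the 4 sections, were Gad2 (0.16), Elavl2 (0.122), Nap1l5 (0.114), Peg3 (0.11) and Spock3 (0.11). For Npy they were Elavl2 (0.0449), Id2, St8sia3, Clstn3 and Ctsd.

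Away from the strong cells, Sst was low in every class but not equal. In unmixed neuron-like cells that were not Sst-strong it made up 15.5, 10.1, 10.1 and 11.2 per 10000 transcripts in Young 1, Young 2, Aged 1 and Aged 2. In astrocyte-like cells, which do not make somatostatin, it made up 12.5, 5.45, 4.79 and 4.76 per 10000, with Young 1 apart from the other sections. Oligodendrocyte-like cells showed the same order with 10.9, 3.65, 3.41 and 3.38. Neuron-like cells thus lay above astrocyte-like cells of their own section in all 4 sections, and in Young 1 by the smallest factor.

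Npy per 10000 transcripts was between 0.691 and 0.897 in unmixed neuron-like cells, between 0.453 and 0.895 in medium spiny neuron-like cells and between 0.659 and 0.923 in OPC-like cells. It was lower in oligodendrocyte-like (0.227 to 0.394) and astrocyte-like cells (0.0775 to 0.160), and these ranges did not overlap with that of neuron-like cells. Sst-strong cells held 2.51, 3.93, 2.07 and 4.15 per 10000, above every class in every section.

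**Figure D2:**
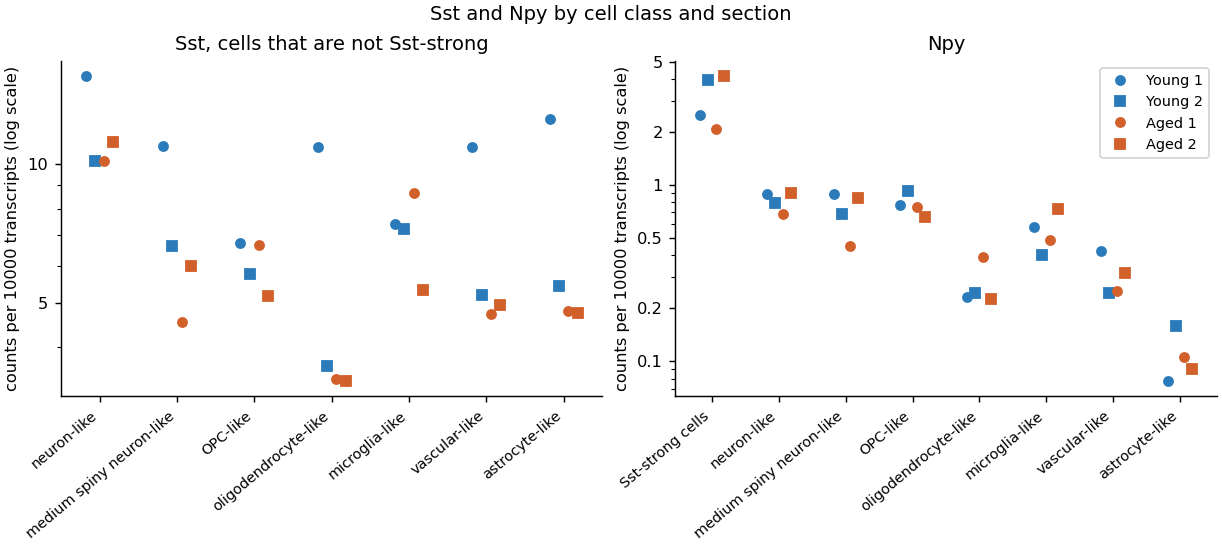
Sst per 10000 transcripts in unmixed cells below the threshold (left) and Npy per 10000 transcripts in Sst-strong cells and in unmixed cells of each class (right), on log axes, 1 point per section. Young 1 has the highest Sst in 6 of the 7 classes, and Npy is highest in Sst-strong cells in all 4 sections.

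Sst below the threshold was higher beside Sst-strong cells. Unmixed glial and vascular cells whose centre lay within 25 µm of an Sst-strong cell held a mean of 0.363, 0.301, 0.198 and 0.142 Sst transcripts in Young 1, Young 2, Aged 1 and Aged 2, against 0.208, 0.0805, 0.0528 and 0.0639 in those more than 100 µm away. The near cells were higher in 4 of 4 sections, by 1.75, 3.75, 3.74 and 2.23 times (mean difference 0.150, exact sign-flip p = 0.125). Within 15 µm the means were 0.613, 0.549, 0.333 and 0.188.

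**Figure D3:**
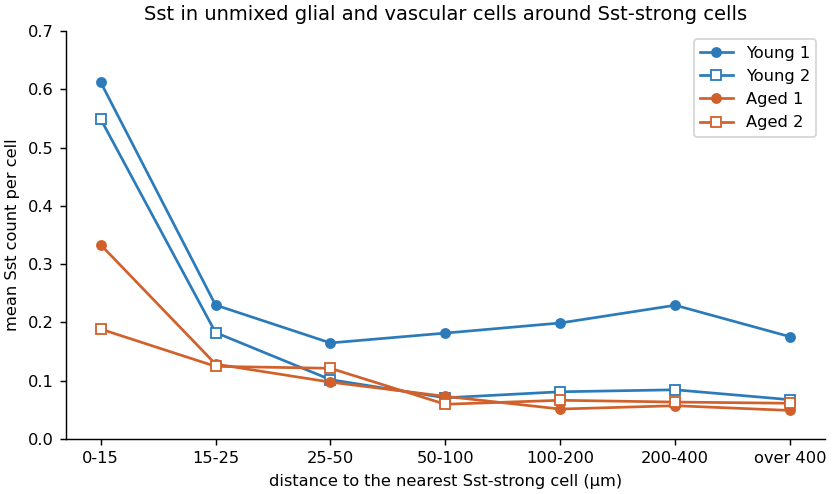
Mean Sst transcripts per unmixed glial or vascular cell (y) by distance to the nearest Sst-strong cell in µm (x), 1 line per section. Each line is highest within 15 µm, and Young 1 stays above the other sections at every distance.

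Beside other neuron-like cells, neuron-like Sst-strong cells had a clear set of differing genes, with 93 genes higher (24.3%) and 89 lower (23.3%) of 382 tested by edgeR. The groups also differed in region. By section, 108, 80, 63 and 74 of the Sst-strong cells were striatal and 254, 203, 109 and 187 lay outside. The comparison cells numbered 804, 607, 673 and 730 in the striatum and 18124, 22168, 19499 and 21897 outside, so whole-section folds compare regions too. Of the 4 peptide granule genes, 3 were higher and 1 lower. Scg2, which encodes the granule protein secretogranin II, was higher by a log2 of 1.61 (SE 0.09, adjusted p = 4.4e-09), at 20501, 19545, 24913 and 19191 CPM in the 4 sections against 7954, 6829, 6039 and 6704. Vgf, a precursor of granule peptides, was higher by 1.40, and Penk, which encodes proenkephalin, by 1.01. Pcsk2, which encodes a convertase that cuts peptide precursors, was lower by a log2 of -1.42 (SE 0.07, adjusted p = 2.5e-09), at 4600, 4148, 4681 and 3499 CPM against 12018, 11217, 10387 and 11106, and these ranges did not overlap. In the striatum taken alone, Pcsk2 differed by -0.22 and did not pass the test (adjusted p = 0.0794), and Penk was lower by a log2 of -0.57 (adjusted p = 0.00155), opposite to its value over the whole sections. Scg2 (0.85) and Vgf (1.55) were higher there too.

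All 4 GABA neuron genes were higher over the sections as a whole, with a median log2 fold of 1.06 against -0.01 over all genes tested. Gad2, which encodes an enzyme that makes GABA, was higher by 1.30, Elavl2, a neuronal RNA-binding protein, by 1.14, Slc32a1, the vesicular GABA transporter, by 0.97 and the noncoding RNA Dlx6os1 by 0.52. Calb1, a calcium buffer, was higher by 1.75. Of 9 medium spiny neuron genes 5 were higher and 2 lower, and of 11 general neuron genes 3 were higher and 4 lower.

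The largest folds belonged to genes not known for neurons. Fgfbp1, a carrier of fibroblast growth factors, was higher by a log2 of 2.93 (SE 0.15, adjusted p = 2.4e-09), followed by Tnf, a cytokine (2.69), Myl12a, a myosin light chain (2.40), and Gkn3, a gastrokine (2.28). After Npy came Crip1 (1.84), Calb1, Rgs9 (1.70), a regulator of G protein signalling of medium spiny neurons, the histocompatibility gene H2-D1 (1.70), Scg2, the complement gene C3 (1.58) and Tspan2 (1.56). The lowest were Cd34 (-2.49), Fxyd5 (-2.22), Rgs4 (-2.20), Ano1 (-1.87), Cxcl12 (-1.73), Ptgs2 (-1.65), Rorb (-1.59), a marker of cortical layer 4, and Arpp21 (-1.55). Oligodendrocyte markers were higher for 2 of 7, with a median of 0.14, and the median of the 4 OPC markers was 0.054.

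With Sst-strong cells of all classes, 109 genes were higher (28.6%) and 101 lower (26.5%) of 381. All 7 oligodendrocyte markers were then higher with a median log2 fold of 3.10 against 0.03 over all genes tested, among them Cldn11 (3.75), Trf (3.20), Mag (3.14), Mal (3.10) and Opalin (2.15), and so were all 4 OPC markers, with Pdgfra at 2.48 and Gpr17 at 2.18. Fgfbp1 (2.69), Tnf (2.52), Myl12a (2.13) and Gkn3 (2.06) were still among the 12 highest, and Sorbs2 (-1.65) joined the lowest. These glial values follow from how the groups were made, since cells that the same markers class as oligodendrocyte-like and OPC-like were in the Sst-strong group and not in the comparison. In neuron-like Sst-strong cells Cldn11 was at 0.14 and Mag at 0.09, and neither passed the test.

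The GABA genes had opposite directions in the 2 regions. In the striatum, where 108, 80, 63 and 74 neuron-like Sst-strong cells were compared with 804, 607, 673 and 730 other neuron-like cells, all 4 were lower in Sst-strong cells, with a median log2 fold of -1.13 (17.2% of all genes tested were called lower). Outside the striatum all 4 were higher, with a median of 1.22 (23.8% called higher). Gad2 stood at 5424, 4606, 4332 and 3932 CPM in striatal Sst-strong cells and at 16200, 12274, 12293 and 15235 in other striatal neuron-like cells. Outside, the values were 17168, 15138, 10175 and 16931 in Sst-strong cells and 5399, 4351, 3773 and 5379 in the others, so the order of the groups was turned in every section.

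The difference between the regions was tested as an interaction, and 90 of 376 genes passed (23.9%). Gad2 differed by a log2 of -3.29 (SE 0.12, adjusted p = 5.3e-16), Dlx6os1 by -3.22, Elavl2 by -2.05 and Slc32a1 by -1.62, striatum minus outside. The comparison cells changed with the region too, since the 4 GABA genes were all higher in other neuron-like cells of the striatum than in those outside, with a median of 1.52 (25.1% of genes called higher). Calb1 was lower in striatal Sst-strong cells than in other striatal neuron-like cells (-0.42) and higher outside (2.09). Npy (0.55) and Vgf (0.06) did not pass the interaction test.

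**Figure D4:**
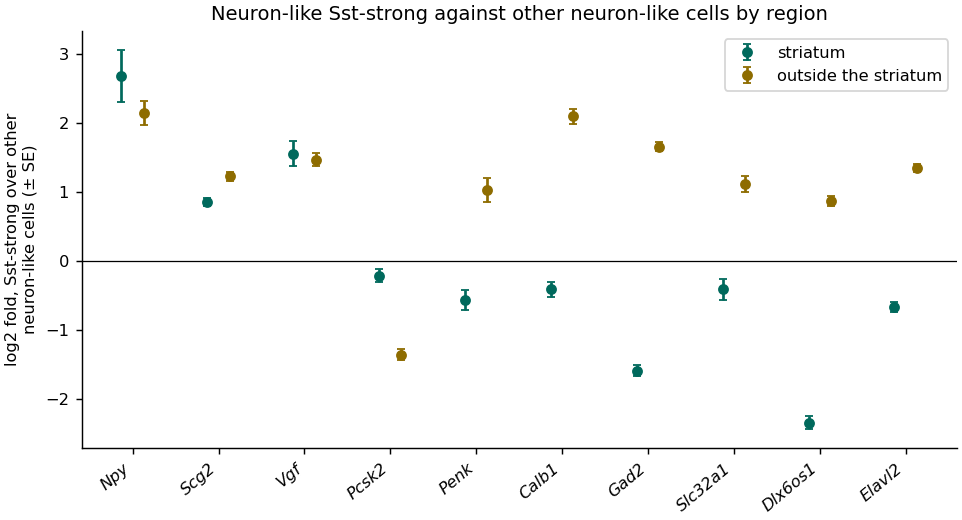
Log2 fold of neuron-like Sst-strong over other neuron-like cells (y, ± SE of the edgeR fit over 4 sections) for Npy, the peptide granule genes, Calb1 and the GABA genes (x), in the striatum (green) and outside it (brown). Npy, Scg2 and Vgf are above 0 in both regions, whereas the 4 GABA genes, Calb1 and Penk are below 0 in the striatum and above 0 outside.

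Among neuron-like Sst-strong cells themselves, 54 genes were higher (18.8%) and 59 lower (20.6%) in the striatum than outside, of 287 tested. Crym, a thyroid hormone-binding protein, was highest with a log2 fold of 2.65 (SE 0.24, adjusted p = 2.0e-10), followed by Fn1, Foxo1, the dopamine receptors Drd1 (1.91) and Drd2 (1.88), Nnat and Arpp21. Of 9 medium spiny neuron genes 7 were higher and 0 lower (median 1.05), and in other neuron-like cells 6 of the same 9 were higher and 1 lower between the regions (median 0.85). Astrocyte markers moved with the region in Sst-strong cells too, with 3 of 7 higher and a median of 0.34, and their part in the other values was not tested. Calb1 was lowest at -2.13 (SE 0.08, adjusted p = 1.3e-18), with 3089, 5007, 4159 and 5151 CPM in the striatum against 13884, 18582, 21910 and 23310 outside, and Serpina3n, Gad2 (-1.65), Ccnd2, Cd34, Atp2b2, Sema7a and Sorbs2 came next. Npy differed by 0.28 (SE 0.29, adjusted p = 0.480), a value that was -0.08 without Aged 2.

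Cells with 3 or more Npy transcripts were few, at 24, 37, 7 and 29 by section. Of these 97 cells 80 were neuron-like, 87 lay outside the striatum, 14 were Sst-strong and 60 had no Sst at all. Among all kept cells, 64.6, 81.1, 89.8 and 82.8% had no Sst in Young 1, Young 2, Aged 1 and Aged 2. Sst-strong cells were 0.360 to 0.712% of kept cells, and 85580 of 281824 kept cells were neuron-like. The striatal outline held 23206, 19431, 20233 and 20386 of 68011, 70774, 68415 and 74624 kept cells, so most lay outside it. The Npy cells that were not Sst-strong (17, 32, 7 and 27 cells) were compared with neuron-like cells without Npy. Of 382 genes, 31 were higher (8.12%) and 39 lower (10.2%). The count threshold was chosen after the low Npy counts were seen.

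Genes of GABA neurons and of oligodendrocytes were both higher in these Npy cells, which were taken from all classes, whereas the comparison cells were neuron-like only. Of the 4 GABA genes 3 were higher (median log2 fold 2.05), as were 3 of the 7 oligodendrocyte markers (median 1.35) and 1 of the 4 OPC markers, against a median of -0.01 over all genes tested. The oligodendrocyte markers were Cldn11 (3.62), Mag (2.68) and Trf (1.95), and the OPC marker was Gpr17 (2.31). These folds rest on few transcripts and not on every section. Gpr17 had 25, 46, 0 and 0 transcripts in Young 1, Young 2, Aged 1 and Aged 2. Cldn11 had 32, 70, 0 and 42, Trf 19, 23, 0 and 37, and Mag 28, 50, 2 and 18. By the naming rule, Egfr, a receptor of epidermal growth factors, was higher by a log2 of 3.86 (SE 0.22, adjusted p = 1.2e-08), Dlx6os1 by 3.34 and Gad2 by 3.04, followed by Mag, Cald1 (2.46), Car4 (2.29), Parp9 (1.74) and Gpr6 (1.56). Among the GABA genes Slc32a1 at 1.06 did not pass the test (adjusted p = 0.0844). Lower genes were Ano1, with 0, 1, 0 and 0 transcripts, Penk (-2.27), Brinp3 (-2.19) and Htr2c (-1.75), the last of which did not pass without Young 1 (adjusted p = 0.102). Penk turned to 2.10 in cells with 2 or more Npy, and leaving out single sections moved the number of higher genes to between 14 and 54.

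Between 2 and 18 months, the share of Sst-strong cells was lower, with both young shares (0.712% and 0.533%) above both aged ones (0.360% and 0.511%). The numbers of Sst-strong cells overlapped between the ages, at 377 in Young 2 and 381 in Aged 2, as did the binomial intervals of these 2 sections. With 2 sections per age, no p under 0.05 was possible. Of all kept cells, 0.622% ± 0.127 were Sst-strong in the young sections against 0.435% ± 0.107 in the aged ones (SD, n = 2 each), with p = 0.333 in a two-sided exact permutation test, the smallest p that 2 sections against 2 allow. In the striatum the young sections averaged 14.0 ± 2.84 cells per mm² and the aged ones 12.2 ± 2.02 (SD, n = 2 each, exact p = 0.667), and the 2 ages overlapped. Outside it was 11.0 ± 3.53 and 6.80 ± 2.41 per mm² (exact p = 0.333), where Young 2 and Aged 2 were nearly equal at 8.53 and 8.50.

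Depth moved with age in these sections. When the threshold of 20 transcripts was lowered in proportion to the median transcripts per cell of a section, 484, 428, 400 and 470 cells were Sst-strong. The striatal density was then 16, 12.7, 14.0 and 15.3 per mm², with the aged mean above the young by 0.306, and the density outside was 13.5 per mm² in Young 1 and between 9.54 and 11.0 in the other sections. When 5% of a cell's transcripts had to be Sst, the difference in the share was -0.00754 percentage points and the density outside was higher in the aged sections by 0.102 per mm².

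**Figure D5:**
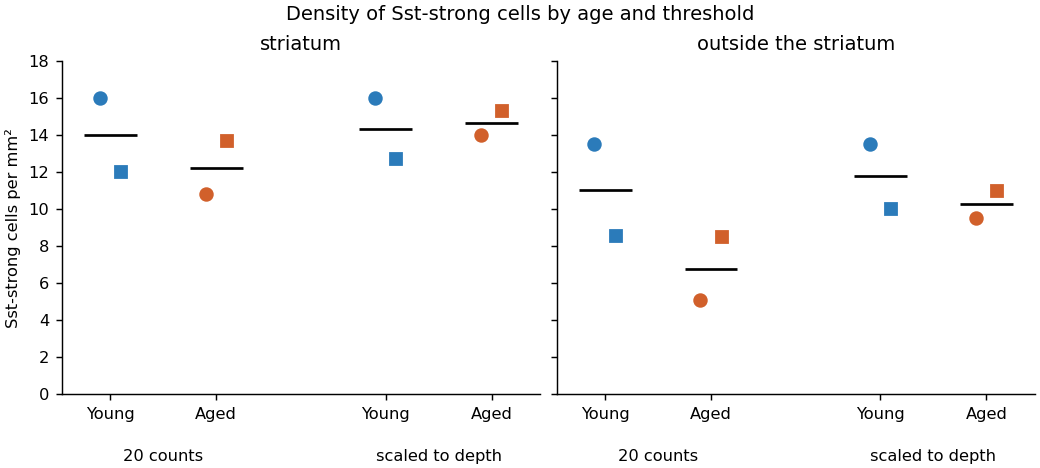
Sst-strong cells per mm² (y) in the striatum (left) and outside it (right), young in blue and aged in orange, circles for section 1 and squares for section 2 of an age, bars for the mean, with the threshold of 20 transcripts and with the threshold scaled to the depth of the section. The ages overlap in the striatum with both thresholds, and the aged mean lies above the young mean there with the scaled threshold.

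The Sst level of Sst-strong cells showed the same dependence on its scale. The median count was 48, 39, 37 and 40 in Young 1, Young 2, Aged 1 and Aged 2 (exact p = 0.667 between ages), with overlapping ages. Per 10000 transcripts of other genes the medians were 795, 758, 1167 and 910 (exact p = 0.333), with both aged sections above both young ones. Age and depth cannot be told apart in these levels.

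Summed by class, with unmixed Sst-strong cells included, Sst was lower in aged sections in all 7 classes, but edgeR called it in 0 of 7 (adjusted p between 0.0881 and 0.950). At an unadjusted p under 0.05 it was lower in 4 of 7 classes, DESeq2 called 2 and limma 0, while of all genes 14.2% were called in OPC-like, 4.75% in oligodendrocyte-like, 3.44% in astrocyte-like, 0.590% in microglia-like and 0% in the other classes. Microglia-like cells, among the 4, were at 793 and 1958 CPM in the young and 784 and 504 in the aged sections. In Young 2 they included 1 Sst-strong cell, and the mean count was 0.194 with it and 0.0781 without it. In neuron-like cells Sst was 2778 and 2320 CPM in the young and 2183 and 2339 CPM in the aged sections, a log2 difference of -0.17 (SE 0.19, adjusted p = 0.950) with overlapping ages. In oligodendrocyte-like cells it was 1085 and 423 CPM against 333 and 330, a log2 difference of -1.20 (SE 0.36, adjusted p = 0.0881, and 0.00899 by DESeq2). Without Young 1 that difference was -0.37, and in astrocyte-like cells it was -0.90 (adjusted p = 0.146) and -0.18 without Young 1, the section with the highest Sst in glia.

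Npy passed the filter on low counts in 4 of 7 classes and edgeR called it in 0 of 4 with age, as did DESeq2 and limma, with 0 of 4 at an unadjusted p under 0.05. In neuron-like cells it was 82.0 and 82.9 CPM in the young and 71.2 and 90.7 in the aged sections, a log2 difference of -0.03 (SE 0.29, adjusted p = 0.993). In Sst-strong cells the log2 difference in Npy was 0.05 (SE 0.39, adjusted p = 0.976).

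Among the other genes of Sst-strong cells, 2 of 371 were called with age by edgeR (0.539%), both higher. Il33, a cytokine of oligodendrocytes and astrocytes, was at 1018 and 1022 CPM in the young and 2635 and 2107 in the aged sections, a log2 difference of 1.22 (SE 0.18, adjusted p = 0.00468). Gatm, an enzyme of creatine synthesis, was at 1790 and 1957 against 3224 and 3250, a difference of 0.80 (SE 0.16, adjusted p = 0.0320). Without mixed cells the differences were -0.17 and -0.22, while in neuron-like Sst-strong cells alone they were 1.0 (adjusted p = 0.196) and 0.89 (adjusted p = 0.109), about as large but past the threshold in neither gene. Leaving out Aged 1 also ended both calls (adjusted p = 0.486 and 0.567), as did leaving out Aged 2 (0.0872 and 0.255), and leaving out Young 1 ended that of Gatm (0.158). Oligodendrocyte-like cells were 43 of 484, 35 of 377, 32 of 246 and 53 of 381 Sst-strong cells in Young 1, Young 2, Aged 1 and Aged 2, a larger share in both aged sections. The 7 oligodendrocyte markers had a median log2 difference of 0.38 with age against -0.02 over all genes tested. The part of this shift in the values of Il33 and Gatm was not tested.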

How the data were processed

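MERFISH counts of 4 sections (2 per age) were grouped by their deposited titles and age labels. Decoding (MERLIN) and cell segmentation were the authors'. Each deposited count, a whole number of transcripts of a gene assigned to a cell, carries no normalization, and the deposited volume, an imaging signal in µm³, and position were used as given. The authors' table of mean signal per gene and section served only to check the reading. Genome build and probe sequences are not given in the sources used here.

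Cells with under 10 genes or under 50 µm³ were left out. Counts were scaled to 10000 per cell, log-transformed and clustered (15 principal components, 20 neighbours, Louvain, resolution 0.08, igraph 0.11.9) without Sst and Npy, and clusters were named from marker lists with a minimum fold of 1.5. No doublet caller was run, since segmented cells are not droplets, and mixed cells stand in for it. A strong cell had at least 20 counts or 10 times the oligodendrocyte-like median of its section, which was 0. The striatum was outlined in squares of 50 µm from the cells within 150 µm, and its dorsal side was set towards the largest white matter tract.

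Counts were summed per section and compared with edgeR 4.0.16 (TMM, filterByExpr, quasi-likelihood test, Benjamini-Hochberg over all genes tested, threshold 0.05; section as a block for cells of the same section), with DESeq2 1.42.0 and limma 3.58.1 as alternatives, in R 4.3.3. Sst was left out of totals where it chose the cells. The SE of an edgeR log2 fold was its absolute value divided by the square root of the quasi-likelihood F statistic. Single values were compared with two-sided exact permutation or sign-flip tests (scipy 1.17.1). On simulated counts edgeR recovered 76.1% of 2-fold changes with age in Sst-strong cells (371 genes) and 98.5% in the comparison of Sst-strong with other neuron-like cells (381 genes). Kept cells held 36035355, 31172121, 18765491 and 29004185 transcripts in Young 1, Young 2, Aged 1 and Aged 2.

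Named genes were the list members and, for each comparison, those with the largest fold past the threshold and 1 sign in all 4 sections, up to 12 higher and 8 lower in Sst-strong against other neuron-like cells, 8 and 8 between regions and 8 and 4 for Npy cells. The members, lists and tests were chosen with earlier results of these data known. Comparisons between regions, of neuron-like Sst-strong cells and of cells with 3 or more Npy were added after the counts were seen. A gene that the rule names between regions is not reported here.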

Additional observations from a re-analysis of the deposited data

Results flagged for a closer look

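In 8 genes the log2 fold of neuron-like Sst-strong over other neuron-like cells differed between the striatum and the rest of the section by the interaction test of edgeR, out of 10 named genes examined, and 23.9% of the 376 genes tested passed it. Given as striatum minus outside, the differences were -3.29 for Gad2, -1.62 for Slc32a1, -3.22 for Dlx6os1, -2.05 for Elavl2, -2.55 for Calb1, -0.42 for Scg2, 1.10 for Pcsk2 and -1.62 for Penk. Leaving out each section in turn gave -3.36 to -3.21 for Gad2 and -2.80 to -2.45 for Calb1. With Sst-strong cells of all classes the value for Penk was -0.17 and did not pass the test (adjusted p = 0.571).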

How the results depend on the processing

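Over 36 comparisons, 387 of 427 alternative values were counted as unchanged, as were 905 of 931 over 100 single genes. Folds of genes had to keep their direction and side of the threshold. Values per section had to keep their direction alone, and numbers of called genes their rough size. Co-expression was 0 at every setting and could not change. Thresholds of 5 or 20 times the oligodendrocyte-like median gave the same cells, since that median was 0, so values at them could not change either. For Sst-strong cells, those that turned were the density in the striatum with age (0.306 with the depth-scaled threshold, -3.79 to 0.229 leaving out sections), the density outside with age (0.102 with 5% of transcripts) and the median count between regions (-0.25 at 50 transcripts).

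Of the class levels with age, Npy turned in neuron-like cells with mixed cells kept (0.054) and, leaving out sections, ranged from -0.24 to 0.14 in neuron-like, -0.73 to 0.064 in medium spiny neuron-like, -0.13 to 0.65 in oligodendrocyte-like, -0.50 to 0.26 in vascular-like and -0.31 to 0.11 in all kept cells. Sst in OPC-like cells turned without TMM (0.044) and ranged from -0.42 to 0.44. Sst passed the test in oligodendrocyte-like cells by DESeq2 (-1.22) and in 3 fits without a section (-1.75 to -0.37), in vascular-like cells in 1 such fit (-1.12 to -0.013), and in astrocyte-like cells by DESeq2 (-0.88), without TMM (-0.91), without a filter (-0.89) and in 1 fit without a section (-1.39 to -0.18).

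Genes called higher with age in Sst-strong cells numbered 1 without TMM, 1 without a filter, 1 without mixed cells, 0 in neuron-like cells alone and 0 to 2 leaving out sections, and those lower 5 without mixed cells and 0 to 2 leaving out sections. Il33 (-0.17) and Gatm (-0.22) turned without mixed cells. In Sst-strong against other neuron-like cells, Opalin turned without mixed cells (-0.25) and Gpr17 in neuron-like cells alone (-0.26). Npy between regions ranged from -0.084 to 0.49 leaving out sections (below 0 without Aged 2), and the interaction of Vgf from -0.24 to 0.23 (below 0 without Young 1). With 2 or more Npy transcripts 48 genes were higher and Penk turned (2.10), and leaving out sections gave 14 to 54 higher and 12 to 43 lower genes. The causes were not tested.

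Sections share replicate numbers, but the numbers did not pair them (correlations of deviations from -0.44 to -0.07). With the replicate number as a block, Sst in OPC-like cells was 0.0041 and no call of Sst or Npy changed, while genes called in oligodendrocyte-like cells went from 18 to 1. Crossed pairing, chosen after seeing the data, gave 50 there, 23 in medium spiny neuron-like, 48 in microglia-like cells and 1 lower and 2 higher in Sst-strong cells. Comparisons with Npy-strong cells could not be run, as no cell was Npy-strong. At this depth, recovery of 1.5-fold changes with age was 28.4% in Sst-strong cells.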
